A study of Mus musculus with 8 samples.

Results

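The 6 genes described here, Rgs1, Rgs2, Rgs3, Rgs8, Rgs10 and Rgs16, encode regulators of G protein signaling and were chosen by name out of the 27998 genes measured. They were picked with earlier results of these data in view, namely their levels per library and in the gated cells used below, so the levels and the differences between those gates are given as a description, with no test. Each symbol stood for 1 gene identifier, and all 6 genes had UMIs (unique molecular identifiers, which count captured RNA molecules once each) in the cells kept, from 225 for Rgs8 to 65942 for Rgs1.

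The cells were CD45+ leukocytes, enriched for CD8+ cells, sorted from subcutaneous B16-OVA melanomas (a mouse melanoma line made to express ovalbumin) of female C57BL/6 mice that received tumor cells at 7 weeks of age. One library was made per condition and day. The libraries of days 5 and 12 each combined tumors from 5 mice, and the pool of day 26 is not given in the sources used here. Days are counted from cell transfer, which by the study's methods began 12 days after tumor injection. Non-treated mice were sampled on day 5. The other mice received 2 infusions of CD45.1+ OT1 cells, T cells whose receptor recognizes an ovalbumin peptide, without lymphodepletion in any group. OT1 cells were untransduced (days 5 and 12), or secreted PD1d with IL-2v (day 12), PD1d with IL-33 (day 12), or were a 1:1 mixture of the last 2 products, PD1d/IL-2v/IL-33 (days 5, 12 and 26), called orthogonal ACT below. PD1d is a secreted PD-1 ectodomain joined to a human IgG4 Fc, IL-2v is an interleukin 2 variant that does not bind CD25, and IL-33 is an alarmin cytokine. Transferred and host CD8 T cells were not told apart here.

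RGS proteins bind active G protein alpha subunits and speed their GTP hydrolysis, which ends the signal of a G protein-coupled receptor. In leukocytes the best known of these receptors are the chemokine receptors, which signal through Gi and steer migration and retention in tissue. Rgs1 dampens chemokine responses of lymphocytes and is a common marker of tissue-resident and tumor-infiltrating T cells, Rgs2 acts preferentially on Gq, Rgs16 is induced by antigen receptor stimulation, Rgs10 is a small family member made by resting T cells and macrophages, Rgs3 is made as long and short isoforms, and Rgs8 is best known from the brain.

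In the RefSeq annotation of GRCm38.p6, 4 of the 6 genes lay on chromosome 1. Rgs2 spanned 143999338 to 144004149 on the minus strand and Rgs1 spanned 144244669 to 144249104. Rgs8 spanned 153652959 to 153697669 on the plus strand, and Rgs16 spanned 153740353 to 153745468 on the plus strand, 42683 bases further on with 1 annotated gene between. Rgs3 lay on chromosome 4 from 62559835 to 62703019 and Rgs10 on chromosome 7 from 128373621 to 128419506. RefSeq promoter windows of 250 bases before to 50 after a transcript start are printed for Rgs2, Rgs16 and Rgs8, because these are the members that were higher in CD8 T cells with Pdcd1 RNA in each library compared below. The Rgs2 and Rgs16 windows are set on the gene starts above, and the Rgs8 window on a transcript start inside the gene span. Capitals mark TGACG, a part of the cAMP response element, and GGAAA, the core bound by NFAT factors, each on either strand.
Rgs2, chr1:144004100-144004399, minus strand: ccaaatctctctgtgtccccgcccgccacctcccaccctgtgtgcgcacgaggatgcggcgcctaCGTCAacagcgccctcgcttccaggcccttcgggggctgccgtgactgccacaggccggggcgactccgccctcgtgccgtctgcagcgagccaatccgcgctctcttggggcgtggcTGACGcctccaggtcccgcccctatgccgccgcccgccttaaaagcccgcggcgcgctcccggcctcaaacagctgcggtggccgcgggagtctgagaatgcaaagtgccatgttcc
Rgs16, chr1:153740103-153740402, plus strand: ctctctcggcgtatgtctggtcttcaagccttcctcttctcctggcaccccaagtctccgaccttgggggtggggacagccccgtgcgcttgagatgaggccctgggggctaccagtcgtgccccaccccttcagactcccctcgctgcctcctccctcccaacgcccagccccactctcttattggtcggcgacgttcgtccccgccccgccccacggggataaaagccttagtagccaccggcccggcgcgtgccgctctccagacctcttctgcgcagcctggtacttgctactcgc
Rgs8, chr1:153652787-153653086, plus strand, the first of 3 windows: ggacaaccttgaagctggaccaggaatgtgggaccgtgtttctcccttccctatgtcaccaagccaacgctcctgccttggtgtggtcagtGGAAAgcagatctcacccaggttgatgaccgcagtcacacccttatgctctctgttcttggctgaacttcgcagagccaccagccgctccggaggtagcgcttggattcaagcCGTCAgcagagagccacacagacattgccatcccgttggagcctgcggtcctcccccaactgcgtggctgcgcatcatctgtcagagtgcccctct
The Rgs2 window held 2 matches to TGACG and none to GGAAA, the Rgs8 window held 1 of each, and the Rgs16 window held neither. The whole cAMP response element TGACGTCA, the AP-1 site TGANTCA, the NR4A site AAAGGTCA and the E-box CACGTG were searched on both strands too and had 0 matches in these windows, against 1.79%, 7.81%, 1.51% and 7.15% of all windows. Of 32851 promoter windows of this length, 20.8% held TGACG and 61.3% held GGAAA. No motif was found in all 3 windows, and a match is a description of the sequence only.

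After the filters, 12827 of 15700 cells remained, with 202 to 3655 cells and 1162663 to 24361675 UMIs per library. The numbers of barcodes deposited per library were round, from 400 to 3700. The non-treated library and the untransduced day 12 library were the smallest, with 276 and 202 cells kept, of which 78 and 41 were CD8 T cells. Of 12732 barcode sequences kept, 95 occurred in more than 1 library. Cells were assigned by raw UMIs: CD8 T (Cd3 and Cd8 genes, no Cd4), CD4 T (Cd3 genes and Cd4, no Cd8), NK (no Cd3, Cd8 or Cd4, at least 2 UMIs of Ncr1 or Klrb1c) and myeloid (at least 5 UMIs of Lyz2, Csf1r, Cd68, C1qa and C1qb). CD8 T cells were split by whether a Pdcd1 UMI (the gene of PD-1) was detected, CD4 T cells by Foxp3, the regulatory T cell factor. By their median sums, the lists of markers that the gates did not use were highest in the gates they name. The summed level of 5 T cell genes had a median of 2260 CPM over libraries in CD8 T cells and 15.6 in myeloid cells. The 8 NK genes had a median of 19269 CPM in NK cells, 6516 in myeloid cells and 3976 in CD8 T cells. Among them, Fcer1g and Tyrobp were higher in myeloid cells, at 3106 and 3283 CPM against 2914 and 2745 in NK cells. The 5 regulatory T cell genes had 5834 CPM in Foxp3-detected and 1677 in Foxp3-undetected CD4 T cells. Melanoma genes summed to at most 17.8 CPM in any gate and library. The 3 neutrophil genes reached 454 CPM in Pdcd1-detected CD8 T cells of PD1d/IL-2v, where 1 of 194 cells held 1074 of the 1124 UMIs, and were at 0 to 66.2 CPM there in the other 6 libraries and at 0 to 29.8 CPM in Pdcd1-undetected cells. The 5 T cell genes reached a median of 878 CPM in NK cells, and whether T cells are among these was not tested. Singly, Thy1, Cd2, Cd28, Lat and Cd5 had medians of 422, 291, 97.0, 72.2 and 0.11 CPM there. In CD8 T cells these were 1088, 334, 259, 467 and 110 CPM.

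Levels in CPM are UMIs of a gene summed over the gated cells of a library, scaled to 1e6 UMIs of those cells. A gate was used in a library with at least 20 cells. Brackets give exact 95% Poisson intervals, which cover counting error only. They treat UMIs as independent and do not cover the sampling of cells, though UMIs of a gene can sit in few cells. With 1 library per condition and day no spread between animals can be had, and no p-value is given. A difference beyond counting error is a difference between the cells counted in 2 libraries, and a few cells can make it.

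**Figure D1:**
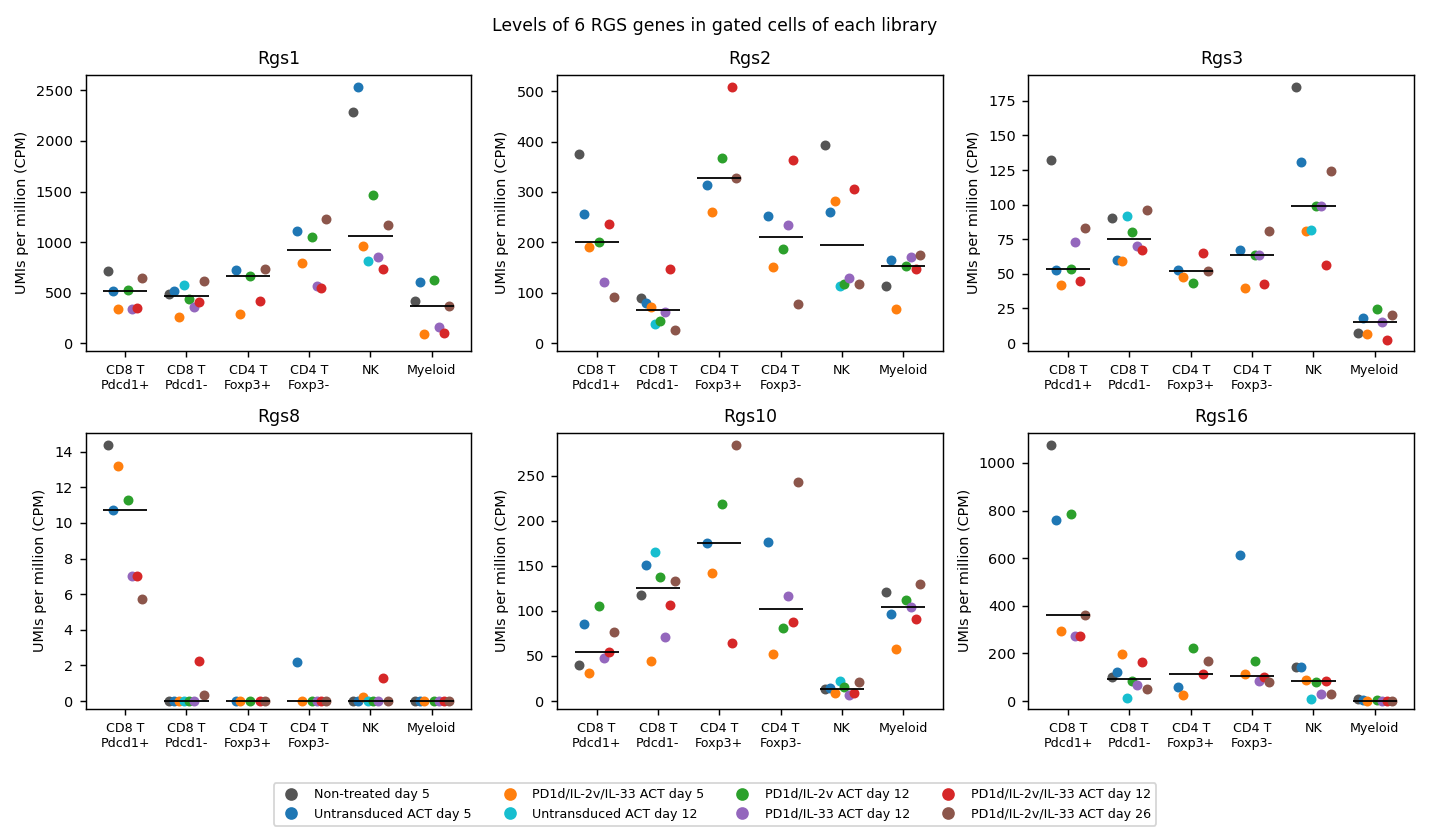
Levels of the 6 genes in CPM (y axis, a scale of its own per gene) in 6 cell gates (x axis, + and - for detected and not detected). Each point is 1 library, coloured by condition and day, and the black line is the median over libraries. Rgs8 is near 0 outside Pdcd1-detected CD8 T cells, Rgs16 is near 0 in myeloid cells and Rgs10 is low in NK cells.

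Rgs16 varied strongly with Pdcd1 in CD8 T cells. In Pdcd1-detected cells its level was 1074 CPM [968, 1189] in the non-treated library, 759 [732, 787] in untransduced day 5, 295 [274, 316] in orthogonal day 5, 785 [751, 821] in PD1d/IL-2v, 273 [244, 305] in PD1d/IL-33, 271 [256, 287] in orthogonal day 12 and 361 [348, 374] in orthogonal day 26. In Pdcd1-undetected cells of the same libraries it was 99.2 CPM [49.5, 178], 120.0 [101, 142], 197 [177, 219], 84.6 [74.8, 95.4], 66.4 [52.0, 83.6], 164 [149, 180] and 52.1 [46.7, 58.0]. Rgs16 was higher with Pdcd1 in 7 of 7 libraries, with a median log2 difference of 2.56 (log2 of CPM + 10), and all 7 counting intervals lay above 0. The median was 2.23 to 2.57 when each library in turn was left out. The untransduced day 12 library had only 15 Pdcd1-detected CD8 T cells and was left out of this comparison.

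The size of that difference was not the same in all libraries. It was 0.56 [0.38, 0.73] in orthogonal day 5 and 0.69 [0.54, 0.85] in orthogonal day 12, and 1.89 to 3.31 in the other 5 libraries, including orthogonal day 26 at 2.58 [2.44, 2.72]. The orthogonal day 5 and day 12 libraries held both low levels in Pdcd1-detected cells and the highest levels in Pdcd1-undetected cells, 197 and 164 CPM against 12.3 to 120.0 in the other 6. The 12.3 CPM, in untransduced day 12, rested on 2 UMIs in 26 cells. Whether reads of the PD1d transgene count as Pdcd1 was not tested.

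Rgs2 moved with Pdcd1 in the same direction. In Pdcd1-detected cells it was at 376 CPM [315, 446] in the non-treated library, 256 [240, 273] in untransduced day 5, 191 [175, 209] in orthogonal day 5, 201 [184, 220] in PD1d/IL-2v, 121 [102, 143] in PD1d/IL-33, 237 [223, 252] in orthogonal day 12 and 91.9 [85.6, 98.5] in orthogonal day 26. The Pdcd1-undetected cells of these libraries held 90.2, 78.8, 71.6, 43.4, 60.9, 147 and 25.7 CPM. Rgs2 was thus higher with Pdcd1 in 7 of 7 libraries, by a median log2 difference of 1.51, with the smallest difference, 0.65 [0.49, 0.81], in orthogonal day 12.

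Rgs8 RNA was rare and almost confined to Pdcd1-detected CD8 T cells. Of its 225 UMIs, 195 came from 2507 Pdcd1-detected CD8 T cells and 8 from 2575 Pdcd1-undetected ones, 6 of these 8 in orthogonal day 12. In Pdcd1-detected cells it had 5 UMIs in the non-treated library, 41 in untransduced day 5, 34 in orthogonal day 5, 28 in PD1d/IL-2v, 8 in PD1d/IL-33, 30 in orthogonal day 12 and 49 in orthogonal day 26, which is 14.4, 10.7, 13.2, 11.3, 7.03, 7.02 and 5.71 CPM. In Pdcd1-undetected cells it was at 0 UMIs in 6 of 8 libraries. Because 5 of the 7 pairs had 0 UMIs on one side, their log2 differences depend on the 10 CPM added and are no measure of fold. When cells were thinned to 2000 UMIs before gating, Rgs8 was no longer higher with Pdcd1 in each library. NK cells held 4 Rgs8 UMIs in 2210 cells and myeloid cells 0 in 1343.

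Rgs8 and its chromosomal neighbour Rgs16 were found in the same cells. Of 123 Pdcd1-detected CD8 T cells with an Rgs8 UMI, 114 also held an Rgs16 UMI, while 1210 of all 2507 Pdcd1-detected cells held Rgs16. Of the Rgs8 UMIs, 146 came from the 1033 CD8 T cells with 5 or more Pdcd1 UMIs, which had a median of 10120 UMIs. The part of depth and of the Pdcd1 level in this overlap was not tested. Rgs8 was not in a fixed proportion to Rgs16. There were 195 Rgs8 and 10597 Rgs16 UMIs in Pdcd1-detected CD8 T cells, 8 and 1613 in Pdcd1-undetected ones, 4 and 1257 in NK cells and 1 and 694 in Foxp3-undetected CD4 T cells.

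Rgs10 went the other way and was lower in Pdcd1-detected CD8 T cells in 7 of 7 libraries, with a median log2 difference of -0.73. Its levels with and without Pdcd1 were 40.2 and 117 CPM in the non-treated library, 85.4 and 151 in untransduced day 5, 31.0 and 44.2 in orthogonal day 5, 105 and 138 in PD1d/IL-2v, 47.5 and 71.0 in PD1d/IL-33, 54.3 and 107 in orthogonal day 12, and 76.6 and 133 in orthogonal day 26. Rgs1 was higher with Pdcd1 in 5 libraries and lower in 2, with a median of 0.06 and a range of -0.20 to 0.54. Rgs3 was higher in 2 and lower in 5, with a range of -0.51 to 0.50.

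Over all genes tested in these 7 pairs, 9.05% were higher and 5.59% were lower with Pdcd1 in each library, beside 3 and 1 of the 6 members, and since the members were picked with these levels known nothing is read from that count. Pdcd1-detected cells were also deeper, with a median of 7063 UMIs per cell against 5425, and expressed more of 4 cycling genes, with medians of 563 and 240 CPM. With every cell thinned to 2000 UMIs, 29.3% [27.5, 31.1] of Pdcd1-detected and 6.83% [5.89, 7.88] of Pdcd1-undetected CD8 T cells held an Rgs16 UMI (unthinned 48.3% and 11.8%), against 0.447% [0.164, 0.970] of myeloid cells, which had a median of 8999 UMIs. For Rgs2 the thinned shares were 20.8% and 9.24%. With cycling cells left out, 6 libraries had enough cells. The median log2 differences there were 2.61 for Rgs16, 1.55 for Rgs2, 0.74 for Rgs8 and -0.39 for Rgs10. With all cells, over 7 libraries, these medians were 2.56, 1.51, 1.05 and -0.73.

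**Figure D2:**
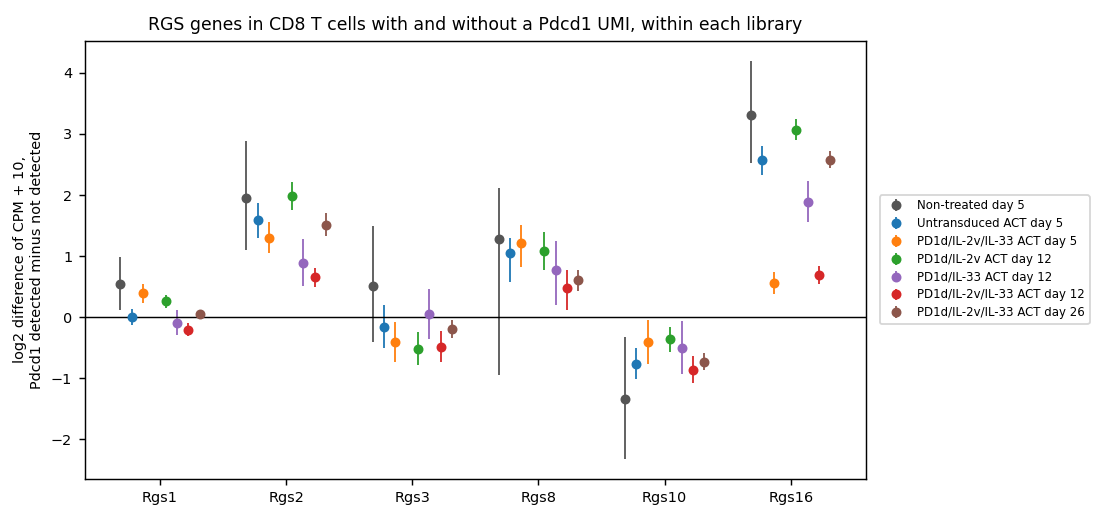
Difference of log2(CPM + 10) between Pdcd1-detected and Pdcd1-undetected CD8 T cells (y axis) for the 6 genes (x axis). Each point is 1 of 7 libraries and each bar its 95% counting interval. All points of Rgs2, Rgs8 and Rgs16 lie above 0 and all points of Rgs10 below, and the Rgs16 points of orthogonal days 5 and 12 are the lowest of that gene.

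In cells pooled over libraries, the levels followed the number of Pdcd1 UMIs as well. Over all libraries, Rgs16 was at 98.0 CPM in CD8 T cells with 0 Pdcd1 UMIs, 218 with 1, 275 with 2 to 4 and 632 with 5 or more. Rgs2 was at 60.2, 105, 115 and 229.5 CPM in the same order, and Rgs8 at 0.49, 2.75, 5.63 and 11.8 CPM. Rgs10 was highest without Pdcd1, at 117 CPM, and was at 80.9, 71.7 and 64.7 CPM in the other 3 bins. The libraries fill these bins unequally, and orthogonal day 26 gave 1152 of the 2575 cells with 0 Pdcd1 UMIs. Within single libraries Rgs2, Rgs8 and Rgs10 did not always keep this order. In orthogonal day 5 Rgs2 was at 144 CPM with 1 Pdcd1 UMI and at 123 with 2 to 4. Rgs8 was there at 8.16 CPM (5 UMIs) and 7.19 CPM (8 UMIs), and its bins rest on few UMIs. In PD1d/IL-33 Rgs10 was at 71.0, 25.8, 56.1 and 54.5 CPM over the 4 bins. A cell in which more Pdcd1 UMIs were seen is also a deeper cell, and these levels are shares of its UMIs.

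The orthogonal day 12 library departed from this order for Rgs16. It held 164 CPM at 0 Pdcd1 UMIs, 420.3 at 1, 289 at 2 to 4 and 201 [182, 221] at 5 or more, where the other 6 libraries were at 349 to 1177 CPM. Its Rgs2 level was already 239.6 CPM at 1 Pdcd1 UMI. In orthogonal day 26 the highest bin again had the most Rgs16, 591 CPM.

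**Figure D3:**
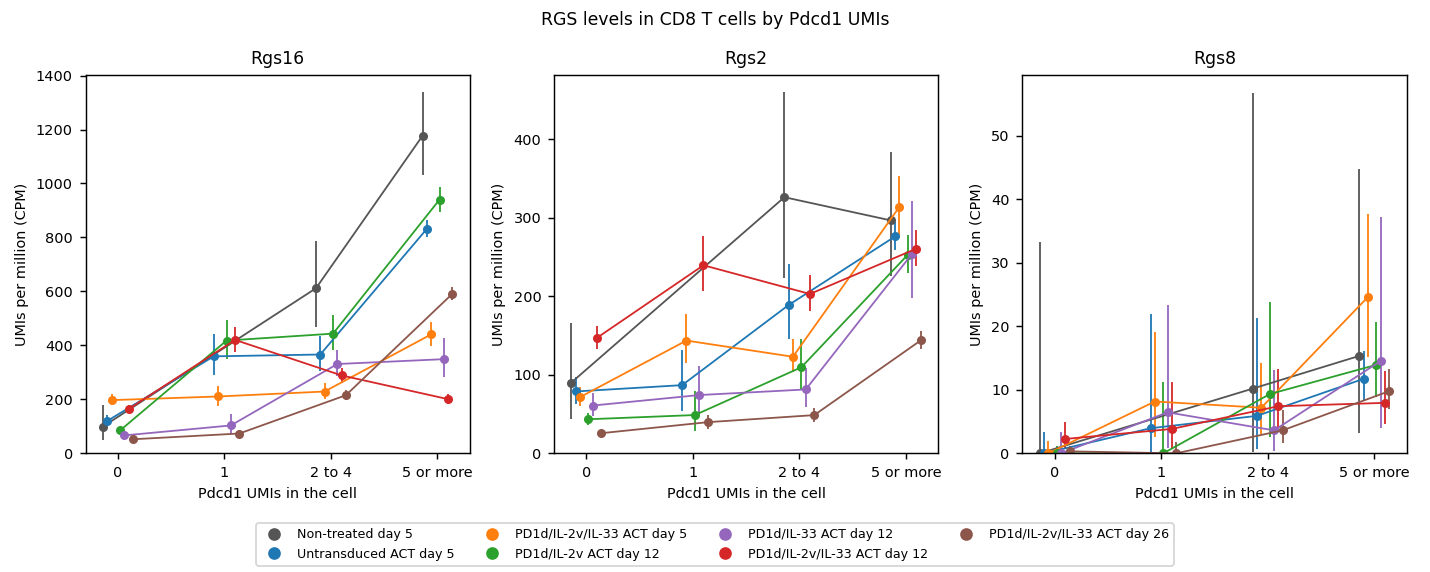
Levels of Rgs16, Rgs2 and Rgs8 in CPM (y axis) in CD8 T cells grouped by their number of Pdcd1 UMIs (x axis). Lines join the bins of 1 library with at least 20 cells, and bars are exact 95% Poisson intervals. Rgs16 is highest in the bin of 5 or more UMIs in 6 libraries and falls to 201 CPM there in orthogonal day 12.

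Much of the Rgs16 and Rgs2 RNA sat in few cells. The 509 CD8 T cells with the most UMIs of a gene, the top 10%, held 76.8% of the Rgs16 UMIs and 70.6% of the Rgs2 UMIs, 54.9% of the Rgs10 UMIs, 46.8% of the Rgs1 UMIs and 43.6% of the Rgs3 UMIs. By library the Rgs16 share was 53.9% in untransduced day 5, 58.7% in orthogonal day 12 and 93.2% in orthogonal day 26, and these shares rise as a gene is detected in fewer cells. Rgs2 was higher in CD8 T cells with an Rgs16 UMI than in those without in each of the 7 libraries that could be compared, for example 426 against 145 CPM in the non-treated library and 139 against 32.1 CPM in orthogonal day 26.

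Between libraries, the level of Rgs16 in all CD8 T cells was highest without treatment. It was 839 CPM [757, 927] in the non-treated library, 615 [593, 637] in untransduced day 5, 254 [240, 270] in orthogonal day 5, 150.0 [108, 204] in untransduced day 12, 393 [377, 410] in PD1d/IL-2v, 172 [156, 191] in PD1d/IL-33, 230.3 [219, 242] in orthogonal day 12 and 229.6 [222, 237] in orthogonal day 26. The last 2 values and the pair of untransduced day 12 and PD1d/IL-33 did not differ beyond their intervals. A gene was counted as past 2-fold when its log2 difference was at least 1 in size and it had at least 50 UMIs in both libraries together. Orthogonal day 5 lay below untransduced day 5 by a log2 difference of -1.24 [-1.34, -1.15]. The direction turned within Pdcd1 classes, since the difference was -1.34 [-1.45, -1.22] in Pdcd1-detected cells and 0.67 [0.40, 0.95] in Pdcd1-undetected cells, where Rgs16 was at 197 against 120.0 CPM. Cells with 5 or more Pdcd1 UMIs were 69 of 498 in orthogonal and 254 of 503 in untransduced day 5, and the part of this makeup in the difference was not tested. PD1d/IL-33 lay below PD1d/IL-2v by -1.14 [-1.29, -0.99]. Without cycling cells the differences for all CD8 T cells were -0.73 and -0.85, short of 2-fold, and the latter was -0.85 with the mean of per-cell CPM and -0.87 in cells thinned to 2000 UMIs before gating. Orthogonal day 12 lay above untransduced day 12, which held 41 CD8 T cells, by 0.59, which became 1.71 with per-cell CPM, 1.93 in thinned cells and 2.49 without cycling cells. Of the 41 Rgs16 UMIs in the untransduced cells, 27 came from 1 cell, without which the level there was 57.5 CPM [31.4, 96.5] in place of 150.0 and the difference 1.83 [1.17, 2.54].

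Rgs10 was the other member past 2-fold at day 5. Its CD8 T cell level was 58.8 CPM [38.8, 85.6] in the non-treated library, 100.3 [91.6, 109.5] in untransduced day 5, 36.5 [31.1, 42.6] in orthogonal day 5, 106 [71.1, 152] in untransduced day 12, 123 [114, 133] in PD1d/IL-2v, 59.0 [49.3, 70.0] in PD1d/IL-33, 74.4 [68.1, 81.1] in orthogonal day 12 and 100.8 [95.7, 106] in orthogonal day 26. The log2 difference of orthogonal from untransduced day 5 was -1.25 [-1.46, -1.03]. It was present both with Pdcd1, at -1.22 [-1.50, -0.93], and without, at -1.57 [-1.91, -1.24], and in Foxp3-undetected CD4 T cells, at -1.58 [-2.04, -1.13], where 7.94% of all genes tested were lower by over 2-fold. It was smaller in the other gates, at -0.29 [-0.79, 0.20] in Foxp3-detected CD4 T cells, -0.33 [-0.70, 0.04] in NK cells and -0.65 [-0.90, -0.40] in myeloid cells. In this comparison 2 of the 6 members were past 2-fold in CD8 T cells, both lower (Rgs10 at -0.92 in thinned cells), where 3.14% of all genes tested were past it and 1.42% were lower. Without cycling cells the count was again 2, but of Rgs1, at -1.20, and Rgs10, at -1.07.

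Rgs2 in CD8 T cells was higher in orthogonal day 12 than in the other day 12 libraries. Its CD8 T cell level was 307 CPM [259, 362] in the non-treated library, 216 [203, 229] in untransduced day 5, 141 [131, 153] in orthogonal day 5, 91.5 [59.2, 135] in untransduced day 12, 113 [104, 122] in PD1d/IL-2v, 91.8 [79.7, 105] in PD1d/IL-33, 203 [192, 213] in orthogonal day 12 and 63.7 [59.7, 67.9] in orthogonal day 26. Among the day 12 libraries orthogonal ACT had the highest level, with an interval that met none of the other 3. That interval met the one of untransduced day 5 and lay below the one of the non-treated library. The log2 difference of orthogonal day 12 was 1.07 [0.55, 1.62] from untransduced, 1.06 [0.87, 1.26] from PD1d/IL-33 and 0.79 [0.66, 0.92] from PD1d/IL-2v, the first of these resting on 25 UMIs in 41 untransduced cells and falling short of 2-fold with per-cell CPM, at 0.76, and in thinned cells, at 0.62. From day 12 to day 26 Rgs2 was lower by -1.53 [-1.64, -1.42].

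In NK cells too Rgs2 was higher in orthogonal ACT than in the other day 12 libraries, and its interval met those of orthogonal and non-treated day 5. It was at 306 CPM [284, 330] in orthogonal day 12 against 114 [73.7, 168] in untransduced, 117 [106, 129] in PD1d/IL-2v and 129.9 [98.9, 168] in PD1d/IL-33, and at 118 [83.9, 161] on day 26. The day 5 NK cells held 282 CPM [267, 298] in orthogonal, 259 [239, 281] in untransduced and 393 [325, 471] in the non-treated library. In Foxp3-undetected CD4 T cells it was at 151 CPM [128, 178] in orthogonal day 5, 364 [314, 420] on day 12 and 76.6 [62.2, 93.2] on day 26, beside 253 [209, 303] in untransduced day 5, 188 [140, 245] in PD1d/IL-2v and 234 [183, 296] in PD1d/IL-33. Myeloid cells did not follow, with 148 CPM [122, 177] on day 12 and 174 [158, 191] on day 26. Within CD8 T cells the day 12 difference from PD1d/IL-2v and PD1d/IL-33 was larger without Pdcd1, where Rgs2 was at 147 CPM [133, 162] against 36.8, 43.4 and 60.9 in untransduced, PD1d/IL-2v and PD1d/IL-33. The untransduced value rested on 6 UMIs in 26 cells.

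Rgs1 in CD8 T cells was lowest in orthogonal day 5. It was at 660.0 CPM [588, 739] in the non-treated library, 519 [499, 539] in untransduced day 5, 302 [286, 318] in orthogonal day 5, 542 [458, 636] in untransduced day 12, 477 [459, 496] in PD1d/IL-2v, 349 [325, 375] in PD1d/IL-33, 372 [357, 386] in orthogonal day 12 and 632 [620, 645] in orthogonal day 26. None of the 8 comparisons put Rgs1 past 2-fold, and the difference at day 5 was -0.76 [-0.86, -0.67], or -1.20 without cycling cells. Rgs3 was at 122 CPM [92.1, 158] in the non-treated library and at 49.4 to 88.6 CPM in the other 7. Its log2 difference of -1.03 [-1.41, -0.63] between untransduced and non-treated day 5 rested on 56 UMIs in the latter and was -0.78 without cycling cells. Rgs8 in all CD8 T cells ranged from 3.41 to 10.9 CPM in 7 libraries and had 0 UMIs in untransduced day 12, with an upper limit of 13.5 CPM.

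In the other comparisons of CD8 T cells, 1 member was past 2-fold for orthogonal against untransduced day 12 (7.90% of all genes), 1 for PD1d/IL-33 against PD1d/IL-2v (3.02%), 1 for orthogonal against PD1d/IL-33 (1.71%), 1 for orthogonal day 26 against day 12 (3.17%) and 1 for untransduced against non-treated day 5 (1.89%). No member was past it for orthogonal against PD1d/IL-2v (2.09%) or orthogonal day 12 against day 5 (0.698%). These comparisons share libraries, so they are not separate evidence. The median log2 difference over all genes tested lay between -0.13 and 0.12. The deposited aggregation sheet holds a code per library, and whether this code names a batch is not stated in the sources used here. The untransduced and orthogonal day 12 libraries shared a code, as did PD1d/IL-2v with PD1d/IL-33 and the non-treated with the orthogonal day 26 library. In the other comparisons this code and condition cannot be told apart.

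Cycling moved with some of these values. In cells without a UMI of Mki67, Top2a or Birc5, Rgs16 was at 426 CPM in untransduced day 5 and 253 in orthogonal day 5, and in cells with one at 759 and 255. Non-cycling cells held 309 CPM in the PD1d/IL-2v library and 167 CPM in the PD1d/IL-33 library. The Rgs2 level of orthogonal day 12 was 204 CPM in non-cycling and 201 in cycling cells, against 89.4 and 149 in PD1d/IL-2v.

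**Figure D4:**
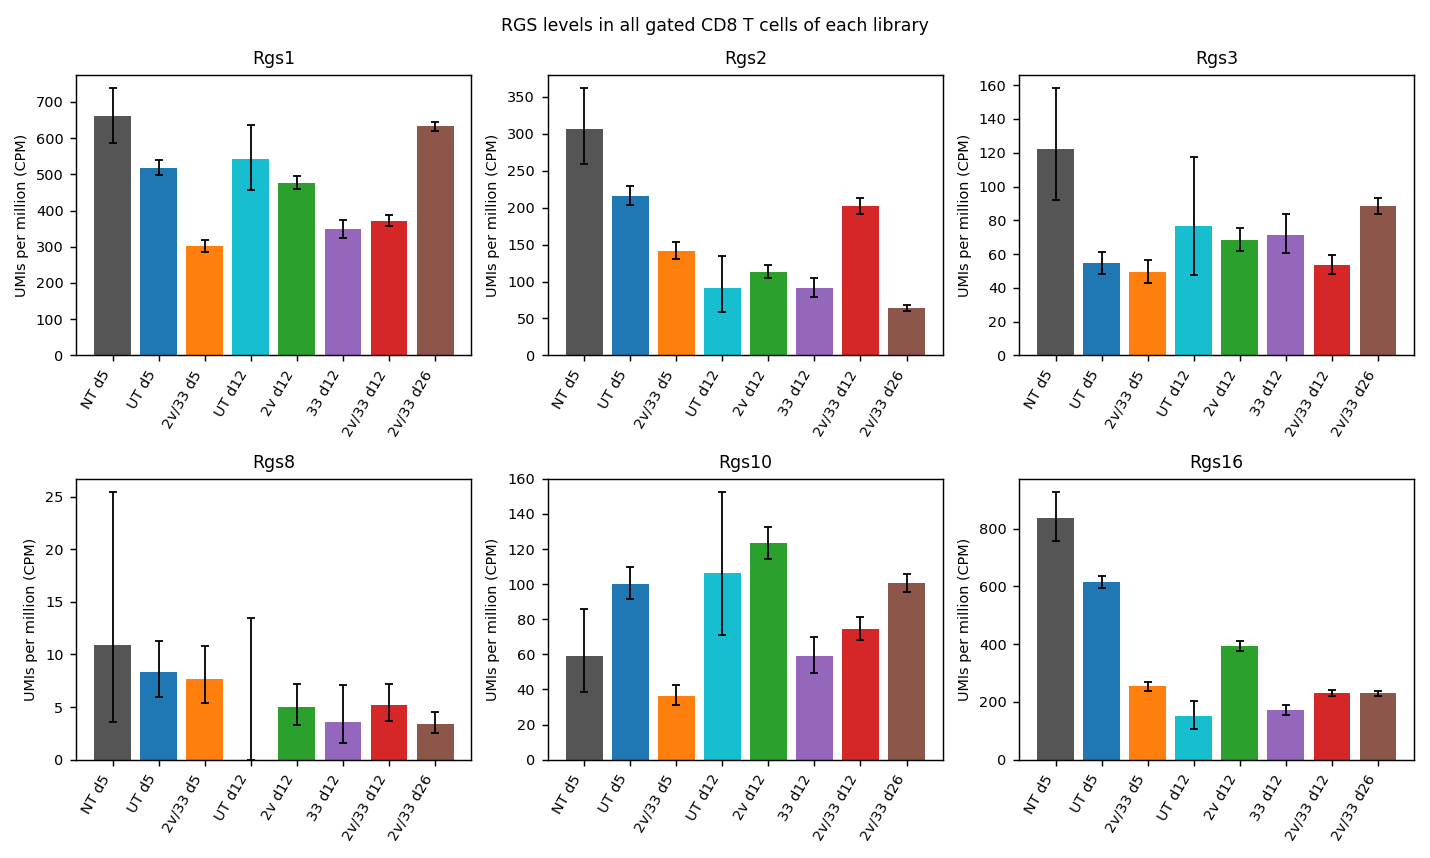
Levels of the 6 genes in CPM (y axis, from 0) in all gated CD8 T cells of each of 8 libraries (x axis: NT non-treated, UT untransduced ACT, 2v PD1d/IL-2v ACT, 33 PD1d/IL-33 ACT, 2v/33 PD1d/IL-2v/IL-33 ACT, d for day). Bars are single libraries with exact 95% Poisson intervals. Rgs2 is higher in orthogonal day 12 than in the other day 12 libraries, and Rgs10 is lowest in orthogonal day 5.

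NK cells carried the highest Rgs1 levels of any gate in most libraries. Rgs1 in NK cells was at 2282 CPM [2114, 2460] in the non-treated library, 2536 [2470, 2602] in untransduced day 5, 959 [931, 987] in orthogonal day 5, 811 [696, 939] in untransduced day 12, 1463 [1422, 1505] in PD1d/IL-2v, 855 [772, 944] in PD1d/IL-33, 734 [699.6, 770.1] in orthogonal day 12 and 1165 [1051, 1287] in orthogonal day 26. It was above the CD8 T cell level in 8 of 8 libraries, by a median log2 difference of 1.43. Foxp3-undetected CD4 T cells had a higher level than NK cells in 1 of 6 libraries, orthogonal day 26, at 1229.7 CPM [1170.0, 1292], and there the intervals overlapped.

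Of the other members, Rgs10 and Rgs16 differed most between NK and CD8 T cells. Rgs2 and Rgs3 were higher in NK cells in 8 of 8 libraries, with intervals above 0 in 5 each and medians of 0.40 and 0.46. Their smallest differences were 0.05 and 0.06. Rgs8 was lower in 7 of 8, with 4 intervals below 0, and had 4 UMIs in NK cells. Rgs10 was lower in 8 of 8, at 6.61 to 22.8 CPM in NK cells, and Rgs16 was lower in 8 of 8, at 9.11 to 144 CPM, with median differences of -1.94 and -2.20. Over all genes tested, 11.1% were higher and 7.95% lower in NK cells in each of the 8 libraries, and 54.1% had a higher median, as did 3 members. Shares of NK cells with an Rgs1 UMI after thinning to 2000 UMIs were 50.5% to 80.9% by library.

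In myeloid cells Rgs16 was at 0 to 7.11 CPM and Rgs8 at 0 UMIs in all 7 libraries with enough cells. Rgs3 was at 2.48 to 24.4 CPM and lower than in CD8 T cells in 7 of 7. Rgs10 was at 57.9 to 130.2 CPM, and Rgs2 at 68.4 to 174 CPM, each without one direction against CD8 T cells. Within libraries Rgs2 was lower in myeloid cells in 4 of 7, with a median log2 difference of -0.37, and Rgs10 was higher in 5 of 7, with a median of 0.34. By the median level over 7 myeloid and 8 CD8 T libraries both were higher in myeloid cells, 2 of 6 members where 36.9% of all genes were, so for Rgs2 the 2 measures differ in sign. Of all genes tested, 17.2% were higher and 30.3% lower in myeloid cells in each of the 7 libraries.

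Among the 6 gates, the ratio of the highest to the lowest Rgs1 level was widest in myeloid cells, while in CPM the NK cells had the wider range. It was at 412 CPM [341, 494] in the non-treated library, 606 [574, 638] in untransduced day 5, 92.5 [82.3, 104] in orthogonal day 5, 627 [598, 657] in PD1d/IL-2v, 159 [114, 216] in PD1d/IL-33, 98.0 [77.6, 122] in orthogonal day 12 and 366 [343, 390] in orthogonal day 26. The 3 lowest libraries were those of days 5 and 12 in which transferred cells secreted IL-33, and their intervals met none of the other 4. The log2 difference was -2.59 [-2.75, -2.42] between orthogonal and untransduced day 5, -1.92 [-2.37, -1.49] between PD1d/IL-33 and PD1d/IL-2v and -2.56 [-2.87, -2.26] between orthogonal day 12 and PD1d/IL-2v. In these 3 comparisons 3.06%, 6.26% and 3.28% of all genes tested in myeloid cells were lower by over 2-fold.

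The myeloid gate differed in its makeup. Macrophages express C1q genes, and 174 of 312 myeloid cells held a C1qa or C1qb UMI in orthogonal day 5, against 42 of 281 in untransduced day 5 and 48 of 284 in PD1d/IL-2v. Rgs1 in orthogonal and untransduced day 5 was at 79.7 against 962 CPM with C1q and 111 against 527 without. In orthogonal day 12 it was at 290.4 CPM with C1q (48 cells) and at 5.51 without (3 UMIs in 76 cells), while PD1d/IL-2v had 739.7 and 599. The 3 neutrophil genes differed in this gate too, at 684 CPM in orthogonal day 5 against 105 in untransduced day 5. On day 12 they were at 1050 CPM in PD1d/IL-2v, 62.0 in PD1d/IL-33 and 133 in orthogonal ACT. In PD1d/IL-2v a single cell held 1293 of their 3011 UMIs. The part of the makeup in the Rgs1 values was not tested. Shares of cell subsets and RNA per cell within a class cannot be told apart further here.

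RNA of 13 dissociation and immediate early genes such as Fos, Jun and Egr1 moved with several of these values. Its summed level in NK cells was 9505 CPM in the non-treated library, 7589 in untransduced day 5 and 2296 to 4960.4 in the other 6, and in myeloid cells 25581 in untransduced day 5, 20866 in the non-treated library, 15678 in PD1d/IL-2v, 14917 in orthogonal day 26 and 7454 to 10254 in the 3 libraries with low Rgs1. In CD8 T cells it was 4735 CPM in the non-treated library, 4277 in untransduced day 5, 1677 in orthogonal day 5 and 2144 in orthogonal day 26. Rgs1 did not follow this sum in all libraries. Its CD8 T cell level was higher in orthogonal day 26 than in untransduced day 5. In NK cells Rgs1 was lower in untransduced day 12, where the sum was 4960.4 CPM, than in PD1d/IL-2v, where the sum was 3609. Among the day 12 CD8 T cells the sum was 2121 CPM in orthogonal ACT against 2184 to 3114 in the other 3. In the Pdcd1-undetected ones it was 2394 CPM in orthogonal ACT, 2318 in PD1d/IL-2v, 2283 in PD1d/IL-33 and 3396 in untransduced. The part of these genes in the Rgs results was not tested.

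**Figure D5:**
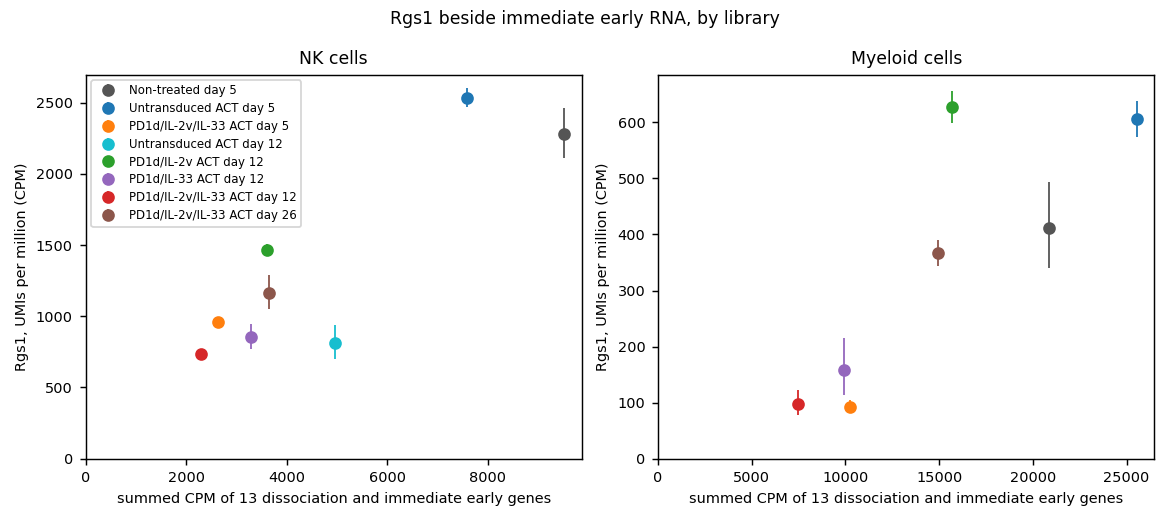
Rgs1 level (y axis, CPM with exact 95% Poisson intervals) against the summed level of 13 dissociation and immediate early genes (x axis, CPM) in NK and in myeloid cells. Each point is 1 library, with colours as in the key. The libraries with the highest Rgs1 in NK cells, untransduced and non-treated day 5, also have the highest x values, and the 3 lowest myeloid Rgs1 values, 92.5, 98.0 and 159 CPM, have the lowest x values.

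In CD4 T cells, Rgs2 was higher with Foxp3 in each of the 5 libraries with enough cells. Foxp3-detected and Foxp3-undetected cells held 313 and 253 CPM in untransduced day 5, 259 and 151 in orthogonal day 5, 367 and 188 in PD1d/IL-2v, 509 and 364 in orthogonal day 12 and 328 and 76.6 in orthogonal day 26. The intervals of 4 of the 5 differences lay above 0, and the median was 0.74. When cells were thinned to 2000 UMIs before gating, 3 libraries had enough cells, and Rgs2 did not keep one direction although its median was 1.48. Rgs1 was lower with Foxp3 in each of the 5, at 725 and 1113, 291 and 796, 662 and 1051, 419 and 545, and 731 and 1229.7 CPM in the same order, with a median difference of -0.66. Over all genes tested, 13.5% were higher and 9.83% lower with Foxp3 in each library.

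Rgs16 did not hold one direction with Foxp3. It was lower in untransduced day 5, at 60.4 against 612 CPM, and in orthogonal day 5, at 25.3 against 113 CPM, and was at 224 against 169.9 CPM in PD1d/IL-2v, 115 against 101 in orthogonal day 12 and 169 against 78.9 in orthogonal day 26. Rgs10 was higher with Foxp3 in 3 libraries and lower in 2, and Rgs3 higher in 2 and lower in 3. Rgs8 had 1 UMI in the Foxp3-undetected and 1 in the Foxp3-detected cells of all libraries.

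Of 15 further RGS genes looked up by name, 4 had no UMI in the cells kept (Rgs4, Rgs20, Rgs21 and Rgs22) and 5 had 1 to 5. Rgs14 and Rgs19, which act on Gi subunits, were the most abundant by UMIs, with 2966 and 6958. Rgs19 had medians of 61.4 to 85.3 CPM and Rgs14 of 24.8 to 49.5 CPM over the 6 gates. Neither was past 2-fold in CD8 T cells in any of the 8 comparisons, and both were higher on day 26 than on day 12 of orthogonal ACT, by 0.76 [0.62, 0.91] and 0.74 [0.55, 0.93]. Rgs18, known from platelets and myeloid cells, had medians of 9.42 CPM in myeloid and 4.92 in NK cells. Of 2 platelet genes in the myeloid gate, Pf4 had a median of 17.9 CPM (236 UMIs) and Ppbp of 0.0 (10 UMIs).

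Genes of G protein signaling were examined in CD8 T cells as lists, namely G protein alpha subunits of all classes, receptors, and receptor kinases and arrestins. Of 13 G protein alpha subunit genes, 6 to 8 passed the minimum of UMIs in each comparison, and 1 was past 2-fold in any of them, Gnaq (Gq), which was higher in orthogonal than in untransduced day 5 by a log2 difference of 1.03 [0.74, 1.30]. Of 21 Gi-coupled migration receptors, 11 to 15 passed. In orthogonal against untransduced day 5, of 11 receptors 2 were past 2-fold higher and 2 lower, where 3.14% of all genes tested were past it. Ccr2 was at 103 against 37.8 CPM and Cxcr4, the receptor of CXCL12, at 186 against 68.7, while Ccr7, which guides cells to lymph nodes, was at 194 against 515 and Ccr8 at 17.5 against 98.9. In PD1d/IL-33 against PD1d/IL-2v, 3 of 11 were higher and 2 lower (3.02% of all genes either way), with Ccr7 at 14.4 against 222 CPM and Cxcr4 at 172 against 57.0. In orthogonal day 12 against PD1d/IL-2v, 1 of 12 was higher and 3 lower (2.09% of all genes either way). Among the lower were the CXCL9 and CXCL10 receptor Cxcr3 and the sphingosine phosphate receptor S1pr1, at 47.5 against 124 and 22.1 against 72.1 CPM. On day 26 of orthogonal ACT these were at 224 and 71.2 CPM, where 2 of 15 receptors were higher and 1 lower than on day 12 (3.17% of all genes either way). In orthogonal against untransduced day 12, 1 of 12 was higher and 4 lower (7.90%). Against PD1d/IL-33, 2 of 12 were higher and 2 lower (1.71%). In untransduced against non-treated day 5, 0 of 11 were higher and 2 lower (1.89%). In orthogonal day 12 against day 5, 0 of 12 were higher and 1 lower (0.698%). None of the 4 Gs-coupled receptor genes that passed was past 2-fold in any comparison. Of 3 to 4 receptor kinases and arrestins that passed in these comparisons, Adrbk1, a kinase that desensitizes receptors, was higher in orthogonal than in untransduced day 5, at 198 against 71.6 CPM, and in PD1d/IL-33 than in PD1d/IL-2v, at 168 against 69.2.

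By the Pearson correlation of log2(CPM + 10) over 41 gate-by-library sums, taken over 8493 genes, the genes closest to each member were Stk24, Tprgl and Adora2a for Rgs1 (0.83, 0.81 and 0.80), Tmem30a, Tnfrsf1b and Tpm4 for Rgs2 (0.74, 0.73 and 0.73), and Selplg, Pdcd4 and Tbx21 for Rgs3 (each 0.91). They were Sema6d, Tnfsf4 and Gldc for Rgs8 (0.76, 0.73 and 0.73), Tnfaip8, Ly6a and Ifi27l2a for Rgs10 (0.84, 0.82 and 0.81), and Nol7, Stk39 and Atad2 for Rgs16 (0.87, 0.86 and 0.85). Among the members the highest values were 0.72 for Rgs1 with Rgs3 and 0.66 for Rgs8 with Rgs16. The sums share libraries and cell types, and the Rgs8 values rest on 208 UMIs.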

How the data were processed

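CD45+ tumor leukocytes were profiled with 10x Genomics 5' gene expression libraries. The authors deposited raw UMI counts of 27998 genes in 15700 barcodes, aggregated over 8 libraries (98669511 UMIs). Bcl2fastq and Cell Ranger were used, with build GRCm38 and Cell Ranger 2.2.0 in the submitters' processing notes, while the study's methods name another Cell Ranger version. Whether reads were subsampled in the aggregation, which would lower the depth of deep libraries, is not given in the sources used here. The day comes from the series' design text.

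Cells were kept with 500 to 6000 genes, 2000 to 40000 UMIs, 5 to 60% ribosomal protein UMIs and under 10% mitochondrial UMIs. Library membership came from the barcode suffix and the aggregation sheet. All gates required under 2 UMIs of B cell genes, and lymphoid gates under 5 of the myeloid genes, which removes some doublets. No doublet caller was run. The UMI counts were summed per gate and library (Python 3.11.15, numpy, scipy), and log2 differences of CPM + 10 were given with intervals combined from exact Poisson limits. The calculation was checked on simulated Poisson counts. These hold no differences between cells, so the check does not show how well the intervals cover in these data. Shares used Clopper-Pearson intervals. TMM factors came from edgeR. No test between libraries was possible.

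The members and lists were chosen with earlier results of these data known. The genes named outside the members were those of fixed lists past 2-fold in CD8 T cells, further RGS genes, and the 3 genes with the highest pattern correlation per member (at least 500 UMIs). Rgs14, Rgs18, Rgs19 and the RGS genes at 0 were named after their values were seen. Promoters and positions are from RefSeq (GRCm38.p6), matched by symbol. Rgs1 had no promoter entry.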

Additional observations from a re-analysis of the deposited data

Results flagged for a closer look

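For 2 members the difference between orthogonal and untransduced ACT pointed in opposite directions on days 5 and 12 in the CD8 T or NK gate, with counting intervals on opposite sides of 0. In CD8 T cells Rgs2 differed by -0.58 [-0.71, -0.44] on day 5 and by 1.07 [0.55, 1.62] on day 12, and Rgs16 by -1.24 [-1.34, -1.15] and 0.59 [0.16, 1.04]. In Pdcd1-undetected CD8 T cells the intervals did not lie on opposite sides of 0. Rgs2 was at -0.12 [-0.47, 0.23] on day 5, an interval that includes 0, and at 1.75 [0.79, 2.75] on day 12. Rgs16 was at 0.67 [0.40, 0.95] and 2.97 [1.67, 3.93], the same direction on both days. The day 12 values without Pdcd1 rest on 26 untransduced cells with 6 Rgs2 and 2 Rgs16 UMIs. In NK cells Rgs16 differed by -0.68 [-0.87, -0.48] and 2.33 [1.15, 3.13]. The difference between the days was not tested, since each day has 1 library per condition. The day 12 values of NK cells rest on 49 untransduced cells with 2 Rgs16 UMIs. Those of all CD8 T cells rest on 41 untransduced cells with 25 Rgs2 and 41 Rgs16 UMIs. Of the 41 Rgs16 UMIs, 27 came from 1 cell, without which (an alternative chosen after seeing the data) the day 12 difference was 1.83 [1.17, 2.54], and without the top cell for Rgs2 it was 1.34 [0.74, 1.99]. In the aggregation sheet the untransduced and orthogonal libraries carried different codes on day 5 and the same code on day 12.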

How the results depend on the processing

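No paired analysis was possible because each condition and day has 1 library, and no replicate of a condition could be left out. Comparisons of gates with and without Pdcd1 or Foxp3 were made within libraries. The counts by the median in NK and myeloid cells compared medians taken over the libraries of each gate. Each library in turn was left out of these, an alternative chosen after seeing the data. By the median, the same members were higher in NK (3) and myeloid cells (2). The counts with Pdcd1 (3) and Foxp3 (1) could not change. A member higher in every library stays so, and each other member failed in more than 1 library. With Pdcd1 the median differences were 1.41 to 1.55 for Rgs2, -0.74 to -0.61 for Rgs10 and 2.23 to 2.57 for Rgs16. Of 94 alternative counts of members, 79 stayed within 1.5 times the reported count and 15 moved. Members past 2-fold in CD8 T cells went from 2 to 1 for orthogonal against untransduced day 5 with cells thinned to 2000 UMIs before gating, from 1 to 2 on day 12 with cycling cells left out, and from 0 to 1 for orthogonal against PD1d/IL-2v with cycling cells left out. On day 5 without cycling cells the 2 members were Rgs1 and Rgs10 in place of Rgs10 and Rgs16. For PD1d/IL-33 against PD1d/IL-2v the count was 0 with the mean of per-cell CPM, without cycling cells and with thinned cells, and 2 with 1 CPM added in place of 10. It was 1 instead of 0 for orthogonal day 12 against day 5 with TMM factors and with 1 CPM added, and 0 instead of 1 for untransduced against non-treated day 5 with all deposited barcodes, per-cell CPM or no cycling cells. Members with a higher median in myeloid than in CD8 T cells were 1 instead of 2 with per-cell CPM, without cycling cells and with thinned cells. Of 336 alternative log2 differences, 264 stayed within the interval of the reported difference and 67 left it. Among those that left it were 22 of 48 with cycling cells left out and 20 of 48 with cells thinned to 2000 UMIs before gating. A further 5 changed sign where the interval of the reported difference excluded 0. Sign changes of differences whose interval included 0 were not counted. Rgs1 in untransduced against non-treated day 5 was 0.23 without cycling cells, and Rgs3 in orthogonal day 12 against PD1d/IL-2v was 0.23 with thinned cells. Rgs16 in orthogonal day 12 against day 5 was 0.021 with TMM factors, 0.37 with per-cell CPM and 0.44 with thinned cells. With thinning before gating, Rgs8 was no longer higher with Pdcd1 in each library, and with Foxp3, where 3 libraries had enough cells, it was Rgs10 rather than Rgs2 that was higher in each. The cause was not tested. The small untransduced day 12 and non-treated libraries limit every comparison that uses them.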
